A study of Drosophila melanogaster with 3 samples.

Results

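The genes described here encode the subunits of the proteasome, and they were examined for peaks of a GFP-tagged homeodomain protein, CG18599, in fruit fly embryos. Members were the protein-coding genes whose symbol begins with Prosalpha, Prosbeta, Rpn or Rpt and a digit, which gave 48 of the 13945 protein-coding genes in the Ensembl models. Of these, 32 encode the general subunits and 16 carry a T or R suffix, which marks copies that are known mainly from the testis. The general subunits comprised 7 Prosalpha, 7 Prosbeta, 6 Rpt and 12 Rpn genes. The Sem1 subunit gene falls outside these symbol patterns and was not analysed here.

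The proteasome is the large protease that degrades ubiquitin-tagged proteins in the cytosol and nucleus. Its 20S core is a barrel of outer alpha rings, which form the gate, and inner beta rings, which carry the proteolytic sites. The 19S regulatory particle caps the core: its Rpt subunits are ATPases that unfold and feed the substrate, and its Rpn subunits form the scaffold, bind ubiquitin and remove it. Cells make these subunits in fixed proportions, and in flies and mammals the genes are induced together when proteasome activity falls, through cap'n'collar transcription factors.

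All 3 samples were biological replicates of 1 group: whole embryos, male and female pooled, at an age of 0 to 24 hours. They came from a stable transgenic line of Drosophila melanogaster that expressed CG18599 with GFP joined to its C-terminal end. Their chromatin, in sonicated fragments of 200 to 800 bp, was pulled down through the GFP tag. Every embryo carried the transgene, no control sample was analysed here, and whole embryos average over all their cell types, so each value below is a position or a rank and not an effect of the protein. Expression was not measured. The files are peak lists with no read numbers, which leaves library depth unknown and allows no interval on a count.

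The authors' list of peaks kept after the irreproducible discovery rate step (IDR list) held 8858 peaks on the dm6 build. Their signal values ran from 223.6 to 13236 on a scale that the sources used here do not give, and served here for ranking alone. Each replicate list held 30000 entries, of which the 8858 strongest are called the replicate's top list. A gene is called occupied when its transcription start site (TSS) is the nearest to a summit within 10 kb. It has a promoter peak when that summit lies within 500 bp, and a promoter-region peak when a summit lies within 500 bp of any of its TSSs, whichever gene's TSS is nearest.

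General subunits of the 19S particle led the members. In the IDR list, 10 of the 32 general subunit genes were occupied (31.2%), against 2 of the 16 paralogs (12.5%) and 29.3% of all protein-coding genes. A promoter peak was found at 8 of the 32 general subunit genes, at 0 paralogs and at 18.7% of all genes. Counting every TSS within 500 bp, 11 general subunit genes (34.4%) and 0 paralogs had a promoter-region peak, against 24.0% of all genes. The occupied share of the general subunits was close to that of all genes, and their promoter-region share stood above it by a few genes. The paralogs were below the share of all genes by each of the 3 counts. Among the 4429 strongest IDR peaks, 4 general subunit genes were occupied (12.5%), against 18.9% of all genes. Without replicate 2, that is over IDR peaks in the top lists of replicates 1 and 3, it was 5 (15.6%), against 23.9%, and without replicate 1 it was 6 (18.8%), against 24.1%. Leaving out replicate 3 gave 8 occupied general subunit genes, a share about equal to the 24.8% of all genes.

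The promoters of 7 of the 11 genes with a promoter-region peak are shown next, because the positions of their summits and neighbours are discussed with the values. The first 5 stretches run from the TSS of the head-to-head neighbour to the TSS of the proteasome gene, and the last 2 are the 200 bases before the TSS. All are on dm6 from the RefSeq assembly, 5' to 3' on the strand of the proteasome gene, and no annotated exon of a protein-coding gene overlaps them. Capitals mark a match on either strand to TATCGATA, the element of the factor DREF, or to TATAAA, the TATA box (TTTATA in Rpn11 is that box on the other strand), except in Rpn3, where they mark a direct repeat.
Rpn3 (chr2L:19051613-19051789, plus strand): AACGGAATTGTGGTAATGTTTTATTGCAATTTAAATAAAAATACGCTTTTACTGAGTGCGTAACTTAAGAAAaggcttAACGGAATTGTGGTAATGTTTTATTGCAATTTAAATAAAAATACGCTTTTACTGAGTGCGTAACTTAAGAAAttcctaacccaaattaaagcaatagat
Rpt5 (chr3R:23752835-23752875, plus strand): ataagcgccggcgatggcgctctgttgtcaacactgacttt
Prosbeta2 (chr3L:14999667-14999950, plus strand): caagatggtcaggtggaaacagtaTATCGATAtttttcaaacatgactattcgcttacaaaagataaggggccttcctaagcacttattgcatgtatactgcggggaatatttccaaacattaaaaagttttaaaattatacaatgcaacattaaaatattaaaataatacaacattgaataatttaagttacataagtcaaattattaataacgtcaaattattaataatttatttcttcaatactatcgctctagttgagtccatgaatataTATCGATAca
Rpn2 (chr3R:29153267-29153523, plus strand): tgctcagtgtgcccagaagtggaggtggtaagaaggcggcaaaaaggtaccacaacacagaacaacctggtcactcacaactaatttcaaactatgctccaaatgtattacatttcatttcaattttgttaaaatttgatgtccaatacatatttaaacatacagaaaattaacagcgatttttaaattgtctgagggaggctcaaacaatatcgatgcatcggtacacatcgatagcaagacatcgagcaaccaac
Rpn5 (chr3R:5789385-5789492, plus strand): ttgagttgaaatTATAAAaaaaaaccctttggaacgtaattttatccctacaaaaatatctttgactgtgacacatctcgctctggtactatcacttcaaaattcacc
Rpn11 (chr2L:5059791-5059990, minus strand): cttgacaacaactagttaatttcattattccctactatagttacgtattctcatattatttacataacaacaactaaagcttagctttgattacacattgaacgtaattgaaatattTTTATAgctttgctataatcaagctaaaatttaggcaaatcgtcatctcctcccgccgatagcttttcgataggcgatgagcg
Rpn12 (chr3L:16582828-16583027, plus strand): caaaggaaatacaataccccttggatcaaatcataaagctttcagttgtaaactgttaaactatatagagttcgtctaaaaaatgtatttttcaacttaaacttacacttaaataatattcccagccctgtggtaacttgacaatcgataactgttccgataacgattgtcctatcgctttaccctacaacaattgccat

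These stretches show how close some of these genes stand to their neighbours. The TSSs of Rpt5 and RanBP3, a Ran-binding protein gene, stand 42 bp apart, and those of Rpn5 and Hat1, a histone acetyltransferase gene, 109 bp apart. In Rpn3, a stretch of 72 bases that starts at position -177 from the TSS comes again at -99, with 6 bases between the copies, and the IDR summit lies in the second copy. Prosbeta2 holds TATCGATA at both ends, at -260 and -10, one beside the TSS of mRpL39, a mitochondrial ribosomal protein gene, and one beside its own.

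The Rpn genes encode the non-ATPase subunits of the 19S particle, and they held most of the member peaks. Of 12 general Rpn genes, 8 were occupied (66.7%), 6 had a promoter peak and 7 a promoter-region peak (58.3%). The Rpt ATPase genes had 1 promoter-region peak among 6 genes (16.7%), the alpha ring 2 among 7 (28.6%) and the beta ring 1 among 7 (14.3%). The 19S particle as a whole had 8 of 18 (44.4%) and the 20S core 3 of 14 (21.4%), against 24.0% of all genes. These are counts over few genes, and the difference between the particles was not tested.

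**Figure D1:**
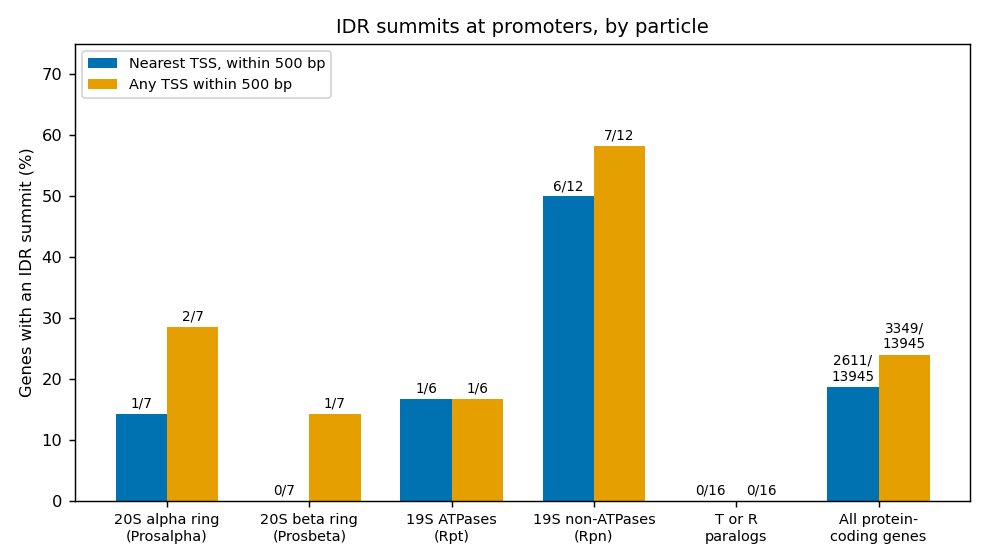
Share of genes (%) with an IDR summit within 500 bp, in the 4 classes of general subunits, the T or R paralogs and all protein-coding genes; blue bars count a summit only for the gene with the nearest TSS, and orange bars for every gene with a TSS in reach. The Rpn bars hold 6 and 7 of 12 genes, the paralog bars are at 0, and the bars of all genes stand at 18.7% and 24.0%.

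Taken replicate by replicate, the Rpn genes held the same place in the order of the particles. A promoter-region peak was in the top list at 6, 8 and 6 of the 12 Rpn genes in replicates 1, 2 and 3, or 55.6% ± 9.62 (SD, n = 3). The Rpt genes had 1, 0 and 0 of 6 (5.56% ± 9.62), and the 20S core had 3, 5 and 3 of 14 (26.2% ± 8.25). In all 3 replicates the Rpn share was the highest of the 3 and the Rpt share the lowest. With the alpha and beta rings kept apart, the Rpn share was still the highest in each replicate. The Rpt share was then not the lowest in replicate 1, where it was 16.7%, against 1 of 7 in the beta ring (14.3%).

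For the 32 general subunits together, promoter-region peaks in the top lists numbered 10, 13 and 9 in replicates 1, 2 and 3 (33.3% ± 6.51, SD, n = 3). Among all genes the shares were 24.5%, 25.9% and 22.0% (24.1% ± 1.95). Occupied general subunits numbered 8, 11 and 7 (27.1% ± 6.51), against 29.5%, 30.4% and 28.8% of all genes (29.6% ± 0.807). The promoter-region share was above that of all genes in 3 of 3 replicates, whereas the occupied share was above it only in replicate 2.

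Only some of these genes were listed by every replicate. A promoter-region peak was in all 3 top lists at 8 of the 32 general subunit genes, namely Prosalpha3, Prosalpha4, Prosbeta2, Rpn2, Rpn5, Rpn11, Rpn12 and Rpn13, against 17.6% of all genes. None of the 3 top lists had one at 18 general subunit genes (56.2%), all 16 paralogs and 68.9% of all genes. The whole replicate lists had a promoter-region entry at 14, 15 and 11 general subunit genes, and at 39.2%, 41.3% and 37.3% of all genes. The whole pooled list had one at 13 general subunit genes (40.6%), against 38.2% of all genes. In these longer lists the general subunits stood close to the background.

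**Figure D2:**
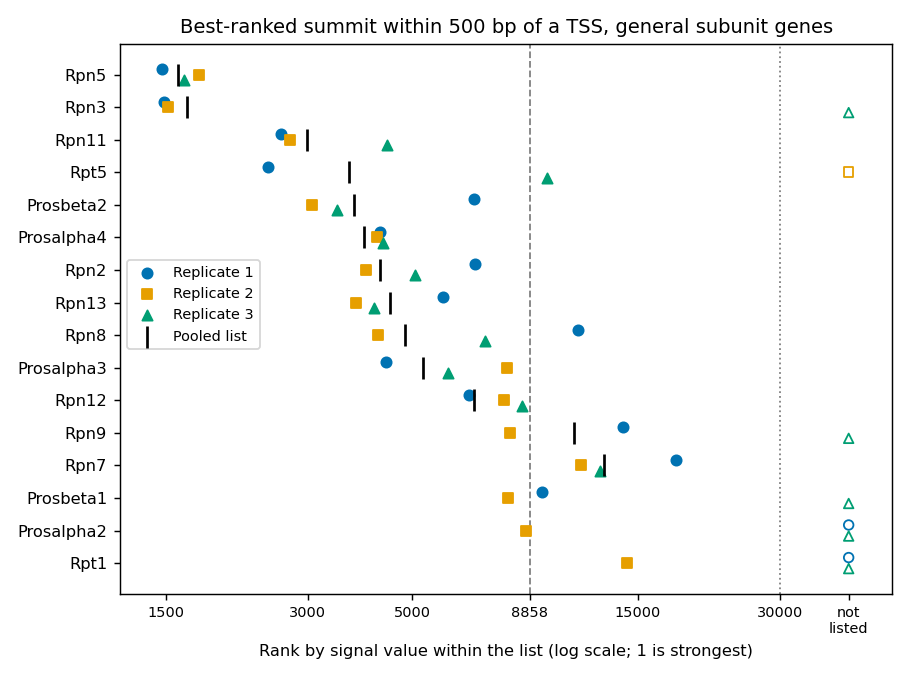
Rank by signal value (log axis, 1 is strongest) of the best summit within 500 bp of a TSS, for each general subunit gene that any list holds; filled symbols are the 3 replicates, vertical bars the pooled list, and open symbols at the right edge mark no entry in that replicate's list. The dashed line is the length of the IDR list (8858) and the dotted line that of the whole list (30000). Rpn5 lies between 1476 and 1766 in every replicate. Of the genes with a promoter-region IDR peak, Rpn3 and Rpt5 each lack an entry in 1 replicate, and some of the other genes shown lack entries too.

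The strongest promoter-region peaks were at Rpn5 and Rpn3, which encode structural subunits of the lid. The peak beside Rpn5 (FBgn0028690) ranked 1595 in the IDR list, and 1476, 1766 and 1640 in replicates 1, 2 and 3. Its summit lay 238 bp upstream of the Rpn5 TSS, past the TSS of Hat1 and inside an intron of that gene, so the nearest-TSS rule gives it to Hat1. The 3 replicate summits lay at -236, -248 and -238. All 3 replicates thus placed it high in their lists and past the Hat1 TSS.

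The peak at Rpn3 (FBgn0261396) ranked 1662 in the IDR list, 1490 in replicate 1 and 1514 in replicate 2, with summits at -52, -40 and -42. Replicate 3 listed no summit within 500 bp of the gene's TSSs. Of the 2000 strongest IDR peaks, 16, 10 and 14 lacked a summit within 250 bp in the whole list of replicates 1, 2 and 3. The Rpn3 peak is therefore one of a small number of strong peaks that a replicate does not list, and it lies on the direct repeat shown above. Whether the repeat has a part in the missing entry was not tested.

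Rpn11, the deubiquitinase that cuts ubiquitin from the substrate, was the general subunit with more than 1 assigned IDR peak. Its stronger peak ranked 2996 with the summit 118 bp upstream of the TSS, and 2639, 2756 and 4419 in replicates 1, 2 and 3. Its weaker peak, at -320, ranked 6823 in the IDR list and 7583, 25236 and 24277 in the replicates. The stronger peak was thus in all 3 top lists, and the weaker only in that of replicate 1. Rpn8 (FBgn0002787), the inactive partner of Rpn11, had a peak of rank 4825 that lay in its own intron, 153 bp upstream of an internal TSS. That peak ranked 11202, 4223 and 7124 in replicates 1, 2 and 3, so replicate 1 held it outside its top list.

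Among the genes for scaffold and ubiquitin-binding subunits, Rpn2 and Rpn13 had peaks of middle rank. Rpn2 (FBgn0028692), which encodes the large scaffold that holds Rpn13, had a peak of rank 4271 at -122, ranked 6779, 3983 and 5066 in replicates 1, 2 and 3. Rpn13, a ubiquitin receptor gene, had a peak of rank 4479 at -80, ranked 5792, 3796 and 4153. Both peaks lay between head-to-head genes, with the TSS of the histone mRNA-binding protein gene Slbp 258 bp from that of Rpn2 and the TSS of the cathepsin gene CtsL1 271 bp from that of Rpn13. In replicate 1 the summit of the Rpn13 entry lay at -271, at the TSS of CtsL1, and in replicates 2 and 3 at -80 and -42.

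Rpn12, a lid subunit gene with no head-to-head neighbour within 500 bp, had a promoter peak of low rank. It ranked 6750 in the IDR list at -92, and 6590, 7829 and 8517 in the replicates, which is inside every top list. Rpn7 and Rpn9, also lid subunit genes, were occupied only through distant summits. The Rpn7 summit, rank 8045, lay 6110 bp downstream of the TSS in an intron of CG34376. Close to their own TSSs the pooled list held weaker entries, at rank 10976 for Rpn9 and 12706 for Rpn7, beyond the length of the IDR list. The Rpn1 scaffold gene, the ubiquitin receptor gene Rpn10 and the lid gene Rpn6 had no summit within 500 bp in any of the lists examined.

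Rpt5 (FBgn0028684) was the single ATPase gene with an IDR peak. Its summit lay 8 bp upstream of the TSS, the closest of the general subunits, and ranked 3674. The rank was 2469 in replicate 1 and 9654 in replicate 3, and replicate 2 had no entry within 500 bp. With Rpn3 it was the member with a promoter peak that 1 replicate did not list. Rpt1 had an entry in replicate 2 alone, at rank 14271, and Rpt2, Rpt3, Rpt4 and Rpt6 had none in any list.

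In the 20S core, Prosalpha3 was the gene with an assigned peak. The peak at Prosalpha3 (FBgn0261394), an outer-ring subunit gene, ranked 5275 at -116, and 4406, 7919 and 5943 in replicates 1, 2 and 3. Prosalpha4, also of the outer ring, shared a peak of rank 3947 with kat80, the gene of a katanin subunit whose TSS is 90 bp away. That summit lay at -265, in an intron of kat80, and it ranked 4259, 4212 and 4330 in the replicates, the narrowest spread in rank among the promoter-region peaks that all 3 replicates listed. A second IDR summit, of rank 6780, lay 65 bp from the Prosalpha4 TSS and was also nearest to kat80.

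Prosbeta2 (FBgn0023174) encodes the subunit with trypsin-like activity, one of the 3 proteolytic beta subunits. It shared a peak of rank 3763 at -156 with mRpL39, whose TSS is 285 bp away. The ranks were 6744, 3066 and 3466 in replicates 1, 2 and 3. The summits lay at -210, -166 and -136, so the nearest TSS was that of mRpL39 in replicates 1 and 2 and that of Prosbeta2 in replicate 3. Prosbeta1, which encodes the caspase-like subunit, had entries of rank 9398 in replicate 1 and 7956 in replicate 2, nearest to Rrp42, and none in replicate 3. Prosbeta5, the gene of the chymotrypsin-like subunit, had none in any list, so the proteolytic subunit genes differed from each other in this respect.

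**Figure D3:**
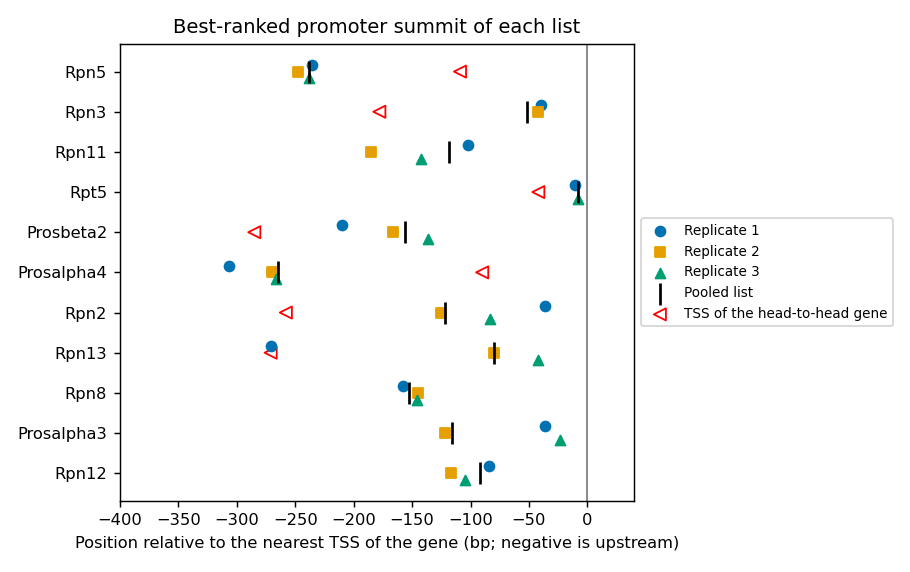
Position of the best-ranked summit of each list relative to the nearest TSS of the gene (bp, negative is upstream), for the 11 general subunit genes with a promoter-region IDR peak; red arrowheads mark the TSS of the head-to-head gene (none drawn for Rpn8, whose summit is beside an internal TSS). All plotted summits are upstream, and at Rpn5 and Prosalpha4 they lie beyond the neighbour's TSS in every replicate.

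The 8 genes had 9 promoter peaks, which all lay upstream of the TSS, from -320 to -8 with a median of -116. Among all 3196 IDR peaks within 500 bp of a TSS, 76.6% were upstream and the median position was -106.5. Their median rank was 4479, and that of all IDR promoter peaks 3798. The 9 peaks thus lay about as far from the TSS as other promoter peaks and had a weaker median rank, a difference that was not tested. They include the weaker Rpn11 peak (rank 6823). They leave out the peaks shared with a neighbour at Rpn5, Prosbeta2 and Prosalpha4 (ranks 1595, 3763 and 3947), so the median rank depends on this choice.

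Replicate support was lower in replicate 3 than in the other replicates. Of the 11 IDR peaks assigned to general subunits, 10, 10 and 7 had a top-list summit within 250 bp in replicates 1, 2 and 3 (90.9%, 90.9% and 63.6%), against 85.9%, 88.3% and 85.9% of all IDR peaks. The weaker Rpn11 peak is counted in replicates 2 and 3 through the summit of the stronger one. In the whole lists the numbers were 11, 10 and 9. The peaks without a summit in a whole list were Rpt5 in replicate 2, and Rpn3 and the distant Rpn7 peak in replicate 3.

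Where the genes lie touches these counts. General subunit genes stood head to head with another gene, TSS to TSS within 500 bp, in 21 of 32 cases (65.6%), against 3 of 16 paralogs (18.8%) and 27.4% of all genes. Among the head-to-head general subunits, 8 of 21 had a promoter-region peak (38.1%), against 38.8% of all head-to-head genes. The 8 include Rpn8, whose summit lay in its own intron beside an internal TSS, and all genes were counted by the same rule. Among those with no such neighbour, it was 3 of 11 (27.3%), against 18.5% of all such genes. Within head-to-head genes, the general subunits therefore had promoter-region peaks about as often as other genes did. For the 19S particle the count was 6 of 12 among head-to-head genes, and for the 20S core 2 of 9 (22.2%).

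The stretch in which a gene's TSS is the nearest one, up to the 10 kb limit, sets how easily the gene is called occupied. Its median length was 1692 bp for the general subunits, 3992 bp for the paralogs and 4247 bp for all genes. Within the general subunits it was 2427 bp for the 19S particle and 1303 bp for the 20S core. The part that these lengths have in the counts was not tested. The median distance from a TSS to the nearest IDR summit was 3359 bp for the general subunits, 10566 bp for the paralogs and 4740 bp for all genes.

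**Figure D4:**
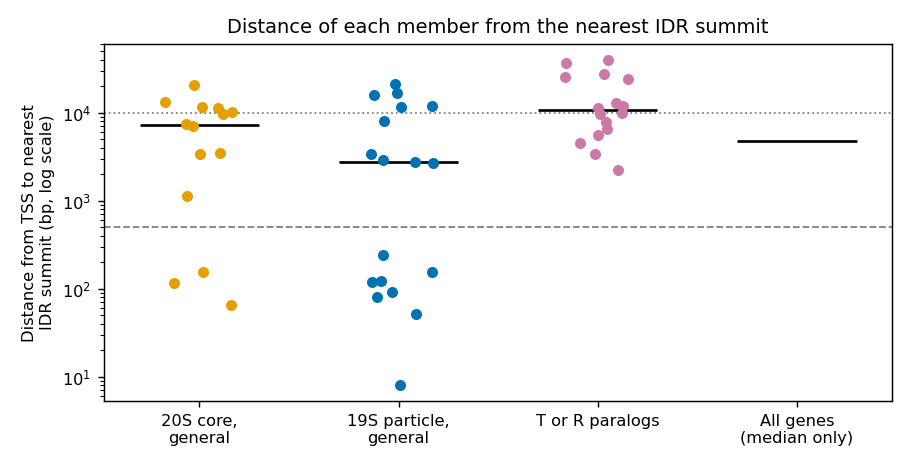
Distance from a member's TSS to the nearest IDR summit (bp, log axis), one point per gene, for the general subunits of the 20S core and 19S particle and for the T or R paralogs, with the median of all protein-coding genes at the right. Horizontal bars are medians, and dashed and dotted lines mark 500 bp and 10 kb; the points below the dashed line are 3 of the 20S core, 8 of the 19S particle and 0 paralogs.

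The T and R paralogs are mostly copies of a core or ATPase gene, and none had a summit near its TSS in the IDR list. Prosalpha3T was occupied through a summit of rank 6728 that lay 2249 bp downstream of its TSS, between genes, and ranked 7275, 7214 and 7678 in replicates 1, 2 and 3. Rpn13R was occupied through a summit of rank 8663 at 9811 bp, just inside the 10 kb limit, ranked 9439, 11136 and 7967. Prosbeta5R1 lay just outside, at 11799 bp from its nearest IDR summit. Occupied paralogs numbered 2, 1 and 3 in the top lists of the replicates (12.5% ± 6.25), and promoter-region peaks 0, 0 and 0.

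Set beside the general subunit of the same stem, the paralog had no entry within 500 bp of a TSS wherever the general gene had an IDR peak there. Prosalpha3 had a promoter peak and Prosalpha3T the distant summit above. Prosalpha4 had the peak shared with kat80, and Prosalpha4T1 and Prosalpha4T2 had no entry within 500 bp of a TSS in any list. The same held for Prosbeta2 with Prosbeta2R1 and Prosbeta2R2, for Rpn12 with Rpn12R and for Rpn13 with Rpn13R. The order was reversed at Rpt6, which had no entry, while Rpt6R had one at rank 14915 in replicate 2, 18021 in replicate 3 and 17917 in the pooled list. At Prosbeta4, which also had none, Prosbeta4R1 had an entry of rank 23631 in replicate 1 alone. For Prosalpha1, Prosalpha6, Prosbeta5, Rpt3 and Rpt4, neither the general gene nor Prosalpha1R, Prosalpha6T, Prosbeta4R2, Prosbeta5R1, Prosbeta5R2, Rpt3R or Rpt4R had any.

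Prosbeta6, a beta-ring gene, had an IDR summit 1116 bp from its TSS that was assigned to its neighbour CG4098. Prosalpha2, an outer-ring gene, had an entry at -214 in replicate 2 alone, of rank 8702, which is just inside the top list. Its nearest IDR summit lay 10141 bp away, just outside the distance limit, and was assigned to Desat1.

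The promoter windows of the general subunits were compared with those of all genes for 6 short motifs, searched on both strands from 250 bases before the 5' end of the gene model to 50 bases after it. TATCGATA, the DNA replication-related element bound by DREF at many housekeeping promoters, was in 12 of 32 general subunit windows (37.5%), 0 of 16 paralog windows and 9.36% of all windows. Among genes with an IDR promoter peak it was in 11.0%. It was in 6 of the 11 general subunit windows with a promoter-region peak (54.5%) and 6 of the 21 without (28.6%). Both shares stood above that of all windows, so the element was frequent in general subunit promoters with and without a CG18599-GFP peak. For Rpn8 the window was at the 5' end of the gene, away from its peak.

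The elements that can be shown are given with 10 bases on either side, on dm6 from the RefSeq assembly and on the strand of the gene, with the motif in capitals. They show that the shared letters end at the motif, with different flanks from gene to gene. Their positions from the 5' end of the gene run from -216 in Rpn12 and -197 in Rpn3 to 26 in Rpn9.
Prosalpha6 (chr2L:10221325-10221352): ccgaatccctTATCGATAcccgatacac
Prosbeta2 (chr3L:14999931-14999958): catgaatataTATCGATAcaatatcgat
Prosbeta6 (chr3L:16610445-16610472): tatgtataccTATCGATAacgtttaagc
Rpn3 (chr2L:19051583-19051610): gttatcggagTATCGATAtcgaaaaggc
Rpn7 (chr3R:22462034-22462061): cggtataattTATCGATAattttggggt
Rpn9 (chr3R:23733419-23733446): cccggttaaaTATCGATAttctcgcgga
Rpn12 (chr3L:16582802-16582829): tgttaaaataTATCGATAttaaagcaca
Rpt5 (chr3R:23752820-23752847): tcgctgtcacTATCGATAagcgccggcg

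TAATTA, the core letters that many homeodomains bind, was in a smaller share of these promoter windows than of all windows, though the counts are small. It was in 3 of 32 general subunit windows (9.38%) and 2 of 16 paralog windows (12.5%), against 20.4% of all windows. Among genes with an IDR promoter peak it was in 19.3%. It was in 0 of the 11 general subunit windows with a promoter-region peak and 3 of the 21 without (14.3%). These counts are too small to be read as a difference. The windows also do not reach the TAATTA matches beside the Rpn5 and Prosalpha4 summits, which are given below. The median share of A and T was 66.5% in general subunit windows, 67.3% in paralog windows and 62.0% in all windows, so both classes of members were richer in A and T than all genes. TATAAA was in 13 of 32 general subunit windows (40.6%), 5 of 16 paralog windows (31.2%) and 45.8% of all windows. None of the 48 members' windows held CACGTG, the E-box, which 4.20% of all windows held.

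The antioxidant response element TGACNNNGC, bound by the cap'n'collar factor cnc with maf-S, was in 5 of 32 general subunit windows (15.6%), 1 of 16 paralog windows (6.25%) and 8.63% of all windows. The 5 were Prosalpha2, Prosbeta3, Rpn1, Rpn7 and Rpt6, of which none was among the 11 genes with a promoter-region peak. Among all genes with an IDR promoter peak the element was in 8.58%, about the share of all windows. With 11 genes, a count of 0 is not read as a difference. GGTCACAC, the core of the M1BP element, was in 5 general subunit windows (15.6%), 0 paralog windows and 7.70% of all windows. A match is a description of the letters, and no factor other than CG18599-GFP was measured.

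**Figure D5:**
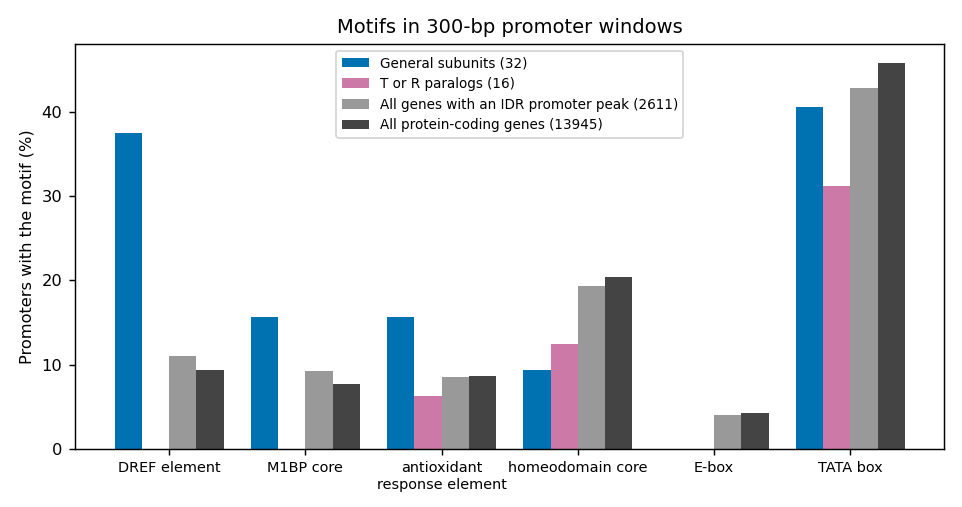
Share of promoter windows (%) that hold each of 6 motifs on either strand, for general subunits, T or R paralogs, all genes with an IDR promoter peak and all protein-coding genes. The DREF element stands at 37.5% of general subunit windows and 9.36% of all windows, and the homeodomain core at 9.38% and 20.4%.

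At the summits themselves, windows of 50 bases on either side were searched at the 11 promoter-region peaks. TAATTA was in 2 of 11 (18.2%), against 8.70% of all IDR peaks within 500 bp of a TSS. These were the shared peaks of Rpn5 and Prosalpha4, whose summits lie in an intron of the neighbour. The matches, with 11 bases on either side, read as follows on dm6.
Rpn5 (chr3R:5789209-5789236, plus strand): tataaaaaaggTAATTAtatcattttgt
Prosalpha4 (chrX:16275979-16276006, plus strand): gtcgttggttaTAATTAttaatacatat

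TATCGATA was in 2 of the 11 summit windows (18.2%), those of Rpt5 and Prosalpha3, against 1.94% of IDR peaks near a TSS. TATAAA was in 4 of 11 (36.4%), against 19.4%. GGTCACAC, TGACNNNGC and CACGTG were in none of the 11, and in 1.19%, 2.50% and 1.03% of IDR peaks near a TSS. With 11 peaks, 1 peak more or less moves any of these shares by 9.09 percentage points.

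Other genes of the ubiquitin and proteasome pathway were examined in 5 lists. Of the 28 genes matched, 8 were occupied (28.6%), close to the 29.3% of all genes. They were 3 of the 5 genes for ubiquitin and its activating enzyme, and 2 of 8 activators, assembly and shuttle factors. The rest were 1 of 8 COP9 signalosome genes and 2 of 3 stress regulators. None of the 4 genes for the TER94 unfoldase and its cofactors was occupied. RpL40, of the ubiquitin genes, and REG, an activator gene, were occupied only through summits 1846 bp or more from a TSS. A promoter peak was found at 6 of the 28 genes (21.4%), against 18.7% of all genes. A promoter-region peak was found at 9 of the 28 (32.1%), against 34.4% of the general subunits and 24.0% of all genes.

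The strongest peak of the pathway lay at Pomp, the gene of the chaperone that assembles the 20S core. It ranked 663 in the IDR list, 230 bp upstream of the TSS, and 726, 641 and 873 in replicates 1, 2 and 3. A second Pomp peak, of rank 1113, lay 6705 bp upstream in an intron of cad and ranked 1264, 1196 and 1075. Both ranked above every peak of the subunit genes, in the IDR list and in every replicate.

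Promoter peaks lay also at the polyubiquitin genes and at both sides of the stress response. Ubi-p63E had one of rank 3166, 135 bp downstream of a TSS, ranked 3617, 2853 and 4618 in replicates 1, 2 and 3. Ubi-p5E had one of rank 4335, 7 bp downstream, ranked 2470, 5639 and 5244. These genes supply ubiquitin as chains of repeats that are cut into single units. Keap1, the inhibitor of cnc, had a peak of rank 5093 at -15, ranked 7040, 6084 and 4008 in the replicates. The cnc gene itself, which encodes the activator of proteasome genes, had its strongest promoter peak at rank 1707, ranked 1669, 1549 and 2446. That peak lay in an intron, 306 bp downstream of a TSS, and a stronger peak of rank 1008 lay in an intron 2439 bp downstream. With 10 TSSs, cnc was the nearest gene over 40428.5 bp, against a median of 4246.5 bp for all genes, and it had 13 IDR summits. The part that this length has in its peaks was not tested. The gene of the cnc partner, maf-S, had no promoter-region peak in any top list.

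Among the COP9 signalosome genes, whose complex is related to the proteasome lid, CSN3 had a promoter peak of rank 6883 at -92. It ranked 5946, 4879 and 19492 in replicates 1, 2 and 3, so replicate 3 held it far down its list. CSN5, the deneddylase gene related to Rpn11, and CSN8 had promoter-region peaks that were nearest to another gene's TSS. In the IDR list, 3 of 8 COP9 genes had a promoter-region peak (37.5%), against 58.3% of Rpn genes and 24.0% of all genes. None of the 8 COP9 signalosome genes had one in all 3 top lists, against 5 of the 12 Rpn genes and 17.6% of all genes. With 8 genes, a count of 0 is not read as a difference.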

How the data were processed

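Chromatin immunoprecipitation and sequencing was done by the authors on 3 replicate embryo samples. Neither aligner nor peak caller is named in the sources at hand. The deposited dm6 lists hold, per peak, the authors' signal value, used to rank peaks, and a column taken to be −log10 q-values, which served only as an alternative ranking. Replicate lists were made with a control and the pooled list from all 3 replicates, per the deposited notes. The IDR list equals the 8858 strongest peaks of the pooled list. Lists on dm3 were not used.

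Summits, counted from 1, were assigned to the nearest protein-coding TSS of Ensembl release 115 with Python 3.11.15, numpy 2.4.6 and pandas 2.3.3, and figures were drawn with matplotlib 3.10.9. Sequences are from the RefSeq assembly of the same build. Of 29 other pathway names, 28 matched a gene, 1 of them through a RefSeq synonym; Ecm29 did not. Named were all members with an assigned summit, all with promoter-region peaks in 3 top lists, those with a near summit of another gene, every paralog with its stem gene, pathway genes with a promoter peak, and cnc. Prosalpha2, Prosbeta1, Prosbeta6, Rpt1 and other members with weaker or no entries were named after their values were seen. Members and lists were chosen with earlier results of these data known, so no chance test was run and all values are descriptions. Assignment was tested on simulated data. The position of 1 distant summit is not reported here.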

Additional observations from a re-analysis of the deposited data

How the results depend on the processing

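Of 74 alternative settings over 13 results, 54 left the value within 1.5 times and 20 moved it further. Shares of all genes moved too and are given beside the counts. With the 4429 strongest IDR peaks, the 10 occupied general subunits became 4 (12.5%, all genes 18.9%), and the 8 with a promoter peak became 4 (12.5%, all genes 11.8%). When IDR peaks had to be in the top lists of 2 replicates, with each replicate left out in turn, the occupied numbered 5 to 8 (5 without replicate 2, 6 without replicate 1), against 23.9% to 24.8% of all genes. Those with a promoter peak numbered 5 to 6, against 14.3% to 15.6%. The mean of 8.67 occupied in the top lists became 4.0 with lists of 4429 (all genes 18.8%). The occupied share of general subunits thus fell below that of all genes in these shorter lists, except without replicate 3. In that case 8 were occupied, a share about equal to the 24.8% of all genes. The share with a promoter peak was close to that of all genes with the 4429 strongest peaks. It was close also without replicate 2 (15.6%, all genes 14.3%). Without replicate 1 and without replicate 3 it was 18.8%, against 14.3% and 15.6%. With counts of 6 genes or fewer, these shares are not read as differences. For the paralogs, the 2 occupied genes became 0 within 1 kb (all genes 21.2%), 1 within 5 kb (27.2%), 0 among the 4429 strongest peaks, 7 in the whole pooled list (43.8%, all genes 48.5%) and 1 with any replicate left out. Their 0 promoter peaks became 1 in the pooled list (all genes 32.1%), and their mean of 2.0 in the top lists became 0.0 with lists of 4429 and 6.67 in whole lists (41.7%, all genes 50.4%). At the 11 summits, TATCGATA fell to 0, TAATTA to 1 and TATAAA to 1 within 25 bp, and GGTCACAC came to 1 within 100 bp. The causes were not tested beyond the shorter or longer lists and windows themselves. No paired analysis was possible because the design has 1 group. Depth is unknown, and with 3 replicates of 1 group and no control sample analysed here, every count describes these lists only.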
